A study of Mus musculus with 34 samples.

Results

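The genes described are Mcc, Itpk1, Fhl3, P3h2, Med18, Hsf2, Arhgap27 and Ccdc85c, 8 of the 53655 genes in each deposited count table. They were chosen from the measured values themselves, as genes whose order of mouse strains differs between epiblast stem cells and definitive endoderm, and all 8 passed the filter on low counts. The values that chose them are the strain differences in each cell type over all strains, above all between PWK/PhJ and C57BL/6J, and the test of strain by cell type over 5 strains, so these are given for the 8 genes as a description without a test. By that strain by cell type test the 8 genes rank 1, 2, 3, 6, 7, 8, 12 and 15, the nearest genes outside the set being Rps19-ps6 at rank 4, Rps26-ps1 at rank 5 and Cd151 at rank 9. Across all 20907 genes tested, 10.7% passed that test at an adjusted p under 0.05 and 6.67% differed in their PWK/PhJ effect between the cell types. PWK/PhJ differed from C57BL/6J in 17.1% of the genes tested in DE and 29.8% of those tested in EpiSC.

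RNA was sequenced from 34 libraries, 17 of definitive endoderm (DE) and 17 of the epiblast stem cells (EpiSC) it was made from, and 16 of the 18 cell lines gave both. The DE libraries came from 4 lines of PWK/PhJ, 2 each of WSB/EiJ, NOD/ShiLtJ and NZO/HiLtJ, 1 each of CAST/EiJ and DBA/2J, and 5 of C57BL/6J. The EpiSC libraries came from 3 lines of PWK/PhJ, 2 each of CAST/EiJ, WSB/EiJ, NOD/ShiLtJ and NZO/HiLtJ, 1 of DBA/2J and 5 of C57BL/6J. All are inbred strains with no engineered allele in the labels, PWK/PhJ, CAST/EiJ and WSB/EiJ being wild-derived. DE had been treated for 16 h with CHIR at 3 uM and activin A at 40 ng/mL and then for 24 h with activin A at 100 ng/mL and LDN-193189 at 100 nM, and cells carrying CXCR4 were collected on magnetic beads. EpiSC had been kept in FGF, activin A and NVP on a layer of irradiated embryonic fibroblasts, and all DE cells started from such cultures. DE libraries were made with a low-input cDNA amplification kit (SMART-Seq v4) and EpiSC libraries with a stranded polyA kit (TruSeq), so an effect of cell type and an effect of library kit cannot be told apart.

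The DE libraries held 23.8 to 67.7 M (mega) reads counted to genes and the EpiSC libraries 25.6 to 33.8 M. A list of 9 definitive endoderm genes (Sox17, Foxa2, Gata6, Gata4, Cxcr4, Hhex, Cer1, Gsc and Eomes) summed to 1502 to 13697 CPM in DE (counts scaled to the same library total, the unit of all levels given), against 107 to 1444 CPM in EpiSC. The lowest DE sums were those of both NOD/ShiLtJ libraries, 1502 CPM in line AC576 and 4047 CPM in line AC595, and the highest EpiSC sums, from 1213 CPM, were those of both CAST/EiJ libraries. A list of 8 epiblast genes stood at 1275 to 4312 CPM in DE and 2359 to 3806 CPM in EpiSC. A list of 10 fibroblast genes, all above 1 CPM on average in EpiSC, summed to 114 to 1605 CPM in DE, where Thy1 and Twist2 were under 1 CPM, and to 75.2 to 3635 CPM in EpiSC. Both NOD/ShiLtJ DE libraries had the highest DE sums of this list, 1576 and 1605 CPM, the other DE libraries reaching at most 711 CPM. Sums of 7 mesoderm genes did not exceed 97 CPM in DE and 720 CPM in EpiSC, those of 5 neuroectoderm genes 152 CPM and 939 CPM, and those of 5 extraembryonic endoderm genes 26.9 CPM and 1.42 CPM in the same order. The part of any of these cell types in the strain differences was not tested except where a value is given, and in bulk RNA fewer cells of a type and less RNA per cell cannot be told apart.

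Expression of a gene can depend on the genome of a strain through variants near the gene or through factors encoded elsewhere, and either kind of variant can act in one cell state and be silent in another. Differentiation replaces the transcription factors bound at promoters and enhancers, and with them the set of variants that can alter a level. The 8 genes do not belong to 1 pathway. Mcc encodes a scaffold protein that restrains Wnt signalling through beta-catenin in human colorectal cells, and P3h2 hydroxylates prolines of basement membrane collagen. Itpk1 phosphorylates inositol phosphates. Fhl3 is a LIM-only cofactor, Med18 a subunit of the Mediator head, Hsf2 a heat shock transcription factor, and Ccdc85c a coiled-coil protein of apical cell junctions.

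In 6 of the 8 genes the strains differed much more in DE than in EpiSC, and only in Mcc and P3h2 was the spread wider in EpiSC. The highest strain mean over the lowest, among the 5 strains with at least 2 libraries in both cell types, was 8.16-fold (Hsf2) to 47.8-fold (Fhl3) in DE for these 6 genes, against 1.23-fold (Ccdc85c) to 2.39-fold (Fhl3) in EpiSC. For Mcc the ratio was 6.45-fold in DE and 11.6-fold in EpiSC, and for P3h2 it was 7.23-fold in DE and 14.8-fold in EpiSC. Among the 10 pairs of these 5 strains, a pair was counted as switched when its libraries did not overlap in either cell type and the order was opposite. Mcc had 6 such pairs, P3h2 and Arhgap27 4 each, Med18 3, Itpk1 and Hsf2 2 each, Fhl3 1 and Ccdc85c 0. At least 1 switched pair was found in 7 of the 8 genes and in 28.1% of all genes tested, a count that the choice of the genes fixes. Of the 22 switched pairs, 9 had a mean difference of at least 2-fold in both cell types, a limit set after the values were seen, and those 9 all belonged to Mcc (6) or P3h2 (3). The other 13 joined a difference under 2-fold in at least one cell type to a difference in the other, and 7 of them, among them all those of Itpk1 and Arhgap27, were not switched when CPM were taken on TMM-scaled totals. On that scale Med18 had 4 switched pairs and Ccdc85c 2. A switch of at least 2-fold in both cell types was thus seen in Mcc and P3h2, and in 5 of these 9 pairs neither strain was NOD/ShiLtJ (3 of Mcc and 2 of P3h2). The other 6 genes had a wide strain range in DE and a narrower one in EpiSC. Fhl3 had the widest EpiSC range of these 6, with WSB/EiJ above every other strain, and its 1 switched pair, PWK/PhJ 1.71 times WSB/EiJ in DE and 0.495 times in EpiSC, was also switched on TMM-scaled totals.

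**Figure D1:**
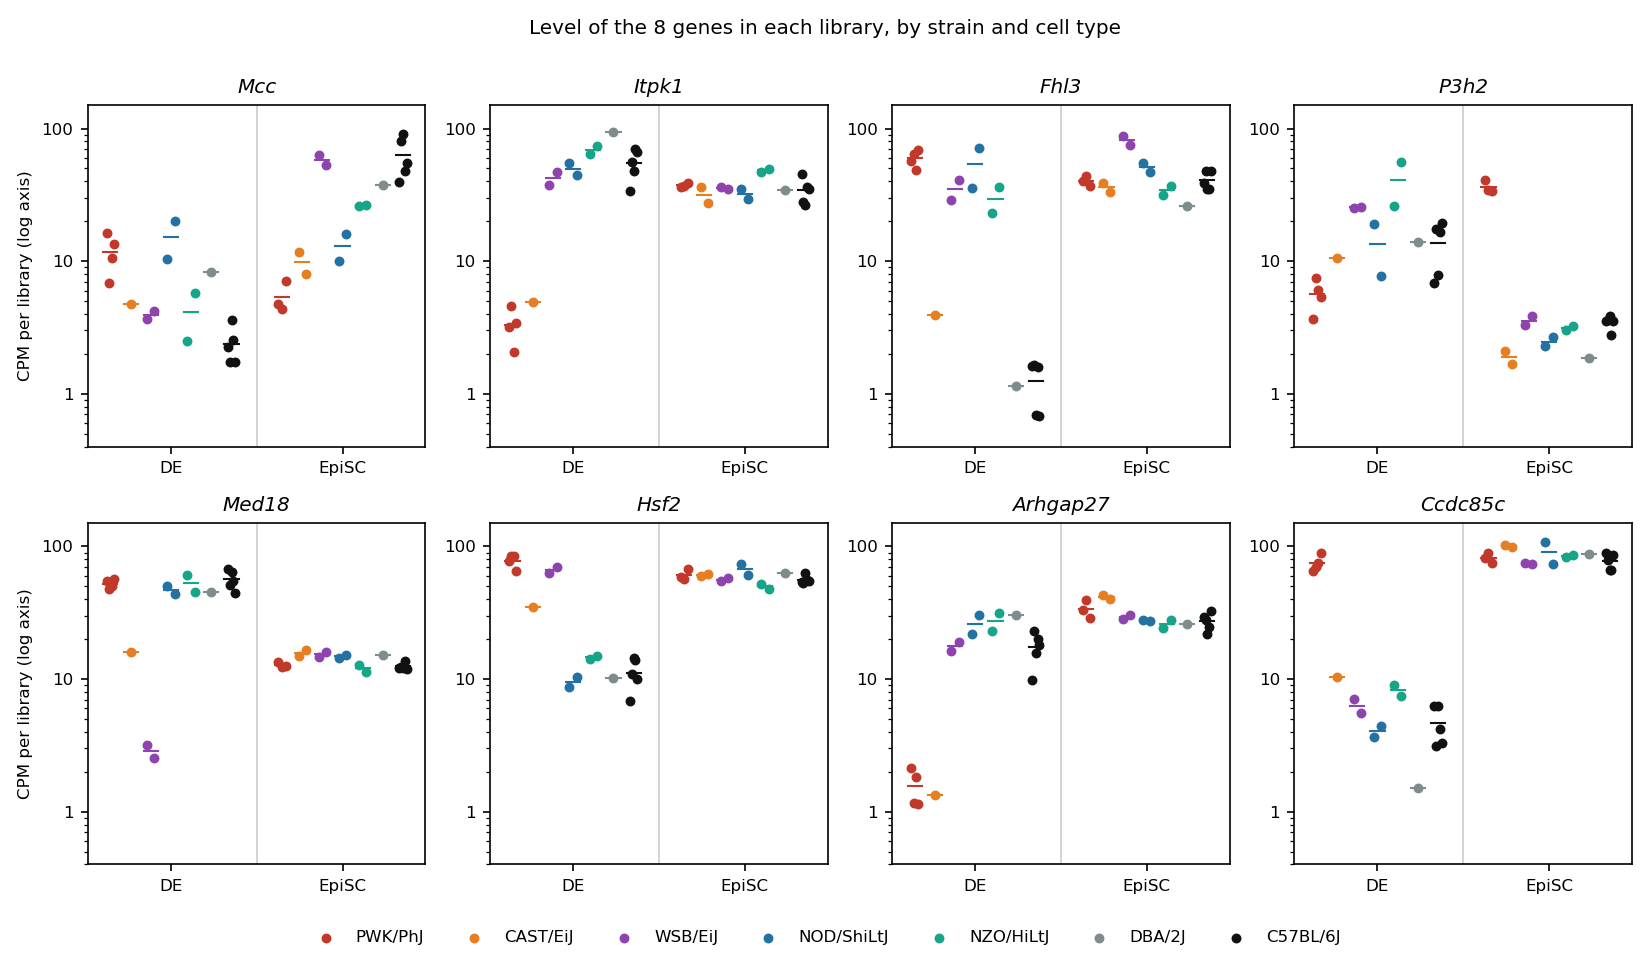
Level of each gene in CPM (log axis) in each of the 34 libraries, DE on the left and EpiSC on the right of each panel, with strains in the order of the legend; points are libraries and short bars are strain means. Itpk1 and Arhgap27 were lowest in PWK/PhJ and CAST/EiJ DE, Fhl3 in C57BL/6J and DBA/2J DE and Med18 in WSB/EiJ DE, while the EpiSC points of these genes span a narrower range.

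Mcc (chromosome 18, 44425060 to 44812182, minus strand, mm10) had its highest strain mean in EpiSC, and its lowest in DE, in C57BL/6J. In DE it had 16.2, 6.78, 10.6 and 13.6 CPM in PWK/PhJ, 10.3 and 20.2 CPM in NOD/ShiLtJ, 2.49 and 5.76 CPM in NZO/HiLtJ, 3.65 and 4.23 CPM in WSB/EiJ, 4.75 CPM in CAST/EiJ and 8.25 CPM in DBA/2J, against 2.25, 1.74, 3.57, 2.54 and 1.74 CPM in C57BL/6J. In EpiSC it had 4.74, 4.34 and 7.14 CPM in PWK/PhJ, 9.97 and 16.0 CPM in NOD/ShiLtJ, 26.1 and 26.4 CPM in NZO/HiLtJ, 63.1 and 53.1 CPM in WSB/EiJ, 11.7 and 8.06 CPM in CAST/EiJ and 37.6 CPM in DBA/2J, against 39.8, 80.3, 90.8, 47.8 and 54.9 CPM in C57BL/6J. All PWK/PhJ libraries were above all C57BL/6J libraries in DE and below all of them in EpiSC. The fitted log2 difference of PWK/PhJ from C57BL/6J was 2.20 ± 0.34 (SE) in DE and -3.60 ± 0.31 in EpiSC, and that of NOD/ShiLtJ 2.62 ± 0.39 and -2.25 ± 0.34 in the same order. The NOD/ShiLtJ DE libraries are those with the most fibroblast and the least endoderm list signal in DE. Line AC576, with the least endoderm signal, had 20.2 CPM of Mcc in DE and 9.97 CPM in EpiSC. The fitted log2 change of Mcc from EpiSC to DE was 0.12 ± 0.43 (SE) in NOD/ShiLtJ. The part of these signals in the NOD/ShiLtJ values was not tested. In EpiSC the order of means was C57BL/6J, WSB/EiJ, DBA/2J, NZO/HiLtJ, NOD/ShiLtJ, CAST/EiJ and PWK/PhJ, in which C57BL/6J overlapped WSB/EiJ and NOD/ShiLtJ overlapped CAST/EiJ. In DE the order was NOD/ShiLtJ, PWK/PhJ, DBA/2J, CAST/EiJ, NZO/HiLtJ, WSB/EiJ and C57BL/6J, in which all neighbours overlapped except DBA/2J with CAST/EiJ and WSB/EiJ with C57BL/6J. The antisense gene A930012L18Rik shares 618 exon bases with Mcc, and with the strand setting of the counts unknown, reads from the pair cannot be told apart.

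P3h2 (chromosome 16, 25959288 to 26105784, minus strand) had its lowest strain mean in DE, and its highest in EpiSC, in PWK/PhJ. In DE it had 3.69, 7.47, 6.10 and 5.34 CPM in PWK/PhJ, 26.2 and 55.5 CPM in NZO/HiLtJ, 25.3 and 25.8 CPM in WSB/EiJ, 19.1 and 7.75 CPM in NOD/ShiLtJ, 10.5 CPM in CAST/EiJ and 14.1 CPM in DBA/2J, against 6.86, 17.4, 7.86, 16.7 and 19.3 CPM in C57BL/6J. In EpiSC it had 41.1, 34.2 and 34.1 CPM in PWK/PhJ and 1.69 to 3.84 CPM in every library of the other 6 strains. PWK/PhJ was thus the highest strain in EpiSC without overlap, and the strain with the lowest mean in DE, where its libraries overlapped those of C57BL/6J. The fitted log2 difference from C57BL/6J was -1.37 ± 0.37 (SE) in DE and 3.33 ± 0.14 in EpiSC. Fibroblast list sums in EpiSC were 2449 to 3151 CPM in PWK/PhJ and 75.2 to 2969 CPM in C57BL/6J, and the library with the highest sum, NOD/ShiLtJ line AC595 with 3635 CPM, had 2.66 CPM of P3h2. In DE these sums were 197 to 596 CPM in PWK/PhJ and 114 to 313 CPM in C57BL/6J. When this list entered the fit as a covariate, the DE difference of P3h2 was -0.64. The EpiSC difference was 3.33 to 3.41 under the alternative filters, scalings and models, this covariate among them. The part of fibroblasts in the P3h2 levels was not tested otherwise. The antisense gene Gm4524 shares 1055 exon bases with P3h2, and with the strand setting of the counts unknown, reads from this pair cannot be told apart either.

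Itpk1 and Arhgap27 were low in DE of PWK/PhJ and CAST/EiJ and in no other strain. Itpk1 (chromosome 12, 102568582 to 102704930, minus strand) had 3.20, 4.56, 2.06 and 3.42 CPM in PWK/PhJ DE and 4.88 CPM in CAST/EiJ DE, against 34.1, 55.9, 48.0, 70.0 and 66.4 CPM in C57BL/6J DE. It had 55.3 and 44.6 CPM in NOD/ShiLtJ, 64.6 and 73.5 CPM in NZO/HiLtJ, 37.5 and 46.8 CPM in WSB/EiJ and 94.8 CPM in DBA/2J DE. The 4 strains other than PWK/PhJ, CAST/EiJ and DBA/2J overlapped along the order of DE means, NZO/HiLtJ, C57BL/6J, NOD/ShiLtJ and WSB/EiJ, and DBA/2J stood above them. In EpiSC all libraries lay between 26.6 and 49.6 CPM, with PWK/PhJ at 36.5, 37.2 and 38.8 CPM, CAST/EiJ at 35.9 and 27.7 CPM and C57BL/6J at 26.6 to 45.5 CPM. In the fit, PWK/PhJ differed from C57BL/6J on the log2 scale by -4.14 ± 0.27 (SE) in DE and 0.06 ± 0.15 in EpiSC.

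Arhgap27 (chromosome 11, 103331497 to 103363692, minus strand) had 2.13, 1.17, 1.83 and 1.15 CPM in PWK/PhJ DE and 1.35 CPM in CAST/EiJ DE, against 9.77, 23.0, 15.8, 19.9 and 18.01 CPM in C57BL/6J DE. It had 21.7 and 30.2 CPM in NOD/ShiLtJ, 23.0 and 31.4 CPM in NZO/HiLtJ, 16.4 and 19.1 CPM in WSB/EiJ and 30.4 CPM in DBA/2J DE. PWK/PhJ and CAST/EiJ overlapped each other and no other strain. In EpiSC the highest means were those of CAST/EiJ (42.7 and 40.5 CPM) and PWK/PhJ (33.2, 39.2 and 29.1 CPM), with 21.9 to 32.8 CPM in C57BL/6J, which overlapped PWK/PhJ. On the log2 scale the fitted PWK/PhJ difference from C57BL/6J was -3.57 ± 0.30 (SE) in DE and 0.24 ± 0.13 in EpiSC. The overlapping antisense genes Arhgap27os1, Arhgap27os2 and Arhgap27os3 had at most 38 counts summed over the DE libraries and 146 over the EpiSC libraries.

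Because these genes were low in the same strains in DE, their promoters are shown, with CG dinucleotides in capitals. In EpiSC CAST/EiJ had the highest mean of Arhgap27, without overlap, and the lowest of Itpk1, where it overlapped NOD/ShiLtJ and C57BL/6J. The windows are the 250 bases before and 50 after the RefSeq start in GRCm38.p6, which is C57BL/6J sequence. The Itpk1 window (chr12:102704820-102705119, minus strand) held 55 CG and the window at the first start of Arhgap27 (chr11:103363643-103363942, minus strand) held 8, where the median of 32851 RefSeq promoters of the same length was 7 and the 95th percentile 37.
Itpk1: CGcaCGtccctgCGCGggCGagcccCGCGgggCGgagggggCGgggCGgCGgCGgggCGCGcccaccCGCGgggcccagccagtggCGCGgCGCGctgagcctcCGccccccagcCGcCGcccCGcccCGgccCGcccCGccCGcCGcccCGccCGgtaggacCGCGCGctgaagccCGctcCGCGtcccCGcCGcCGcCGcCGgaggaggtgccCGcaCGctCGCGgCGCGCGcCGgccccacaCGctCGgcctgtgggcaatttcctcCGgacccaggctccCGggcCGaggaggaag
Arhgap27: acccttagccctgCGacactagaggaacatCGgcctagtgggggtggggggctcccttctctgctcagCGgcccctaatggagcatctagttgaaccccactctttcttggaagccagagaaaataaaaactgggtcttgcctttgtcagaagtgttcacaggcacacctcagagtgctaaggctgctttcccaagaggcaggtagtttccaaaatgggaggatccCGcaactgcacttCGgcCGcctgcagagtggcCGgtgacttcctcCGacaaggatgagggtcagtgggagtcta
On either strand, neither window held the GATA letters GATAA (found in 25.4% of those promoters), the SOX letters ACAAT (31.0%), the FOX letters TGTTTA (13.4%), the TATA box letters TATAAA (13.6%) or the CCAAT box (37.4%). Another start of Arhgap27 (chr11:103344653-103344952) held 8 CG and 1 CCAAT. The 2 genes shared the strain pattern in DE, and their promoter windows differed in CG content.

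Fhl3 (chromosome 4, 124700701 to 124708611, plus strand) was low in DE of C57BL/6J, DBA/2J and CAST/EiJ. It had 57.4, 64.5, 49.0 and 68.3 CPM in PWK/PhJ DE, 35.7 and 71.9 CPM in NOD/ShiLtJ, 28.9 and 41.0 CPM in WSB/EiJ and 23.0 and 36.3 CPM in NZO/HiLtJ, against 1.62, 1.66, 0.694, 1.59 and 0.684 CPM in C57BL/6J. CAST/EiJ DE had 3.95 CPM and DBA/2J DE 1.14 CPM. The low values rest on 24 to 97 reads in C57BL/6J, 94 in CAST/EiJ and 37 in DBA/2J. The 71.9 CPM is that of NOD/ShiLtJ line AC576, whose low endoderm and high fibroblast sums are given above. The first 4 strains overlapped along the order of their means, CAST/EiJ stood between them and C57BL/6J, and DBA/2J lay within the range of C57BL/6J. In EpiSC the levels were 40.5, 43.7 and 37.1 CPM in PWK/PhJ, 88.4 and 74.7 CPM in WSB/EiJ, 39.0 and 33.2 CPM in CAST/EiJ, 26.3 CPM in DBA/2J and 34.8 to 48.3 CPM in C57BL/6J, so that of the strains low in DE only DBA/2J was also the lowest there, and both WSB/EiJ libraries were above those of all other strains. The fitted log2 difference of PWK/PhJ from C57BL/6J was 5.49 ± 0.35 (SE) in DE and -0.09 ± 0.13 in EpiSC.

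The promoter window of Fhl3 (chr4:124700449-124700748, plus strand) is shown as that of the gene with the widest range in DE, with CG in capitals. It held 29 CG and none of the 5 motifs searched.
Fhl3: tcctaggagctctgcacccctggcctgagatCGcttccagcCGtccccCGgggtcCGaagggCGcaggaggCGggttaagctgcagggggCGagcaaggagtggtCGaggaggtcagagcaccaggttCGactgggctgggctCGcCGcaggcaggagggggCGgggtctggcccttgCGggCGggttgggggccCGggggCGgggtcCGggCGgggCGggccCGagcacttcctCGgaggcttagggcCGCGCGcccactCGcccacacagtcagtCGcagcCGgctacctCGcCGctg

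Hsf2 (chromosome 10, 57486385 to 57513135, plus strand) was high in DE of PWK/PhJ and WSB/EiJ. It had 77.1, 84.0, 84.1 and 65.6 CPM in PWK/PhJ DE and 63.2 and 69.6 CPM in WSB/EiJ DE, against 6.78, 10.9, 14.4, 13.9 and 10.1 CPM in C57BL/6J DE. NOD/ShiLtJ had 8.69 and 10.4 CPM, NZO/HiLtJ 14.3 and 14.9 CPM, DBA/2J 10.2 CPM and CAST/EiJ, between the others, 34.999 CPM. In EpiSC every library lay between 48.2 and 73.4 CPM, and PWK/PhJ with 57.03 to 67.8 CPM overlapped C57BL/6J with 53.1 to 62.6 CPM. The level in DE of PWK/PhJ and WSB/EiJ was thus near that of EpiSC, and the other strains were lower. In the fit, PWK/PhJ differed from C57BL/6J on the log2 scale by 2.70 ± 0.20 (SE) in DE and 0.06 ± 0.09 in EpiSC, and WSB/EiJ by 2.56 ± 0.22 and -0.02 ± 0.10 in the same order.

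Ccdc85c (chromosome 12, 108203602 to 108275425, minus strand) was high in PWK/PhJ DE and low in DE of the other 6 strains. It had 64.9, 70.1, 75.4 and 89.2 CPM in PWK/PhJ DE, against 6.28, 3.13, 6.31, 4.18 and 3.28 CPM in C57BL/6J DE. The other DE libraries had 10.3 CPM in CAST/EiJ, 9.08 and 7.49 CPM in NZO/HiLtJ, 7.05 and 5.50 CPM in WSB/EiJ, 3.68 and 4.46 CPM in NOD/ShiLtJ and 1.51 CPM in DBA/2J. In EpiSC every library lay between 66.1 and 108 CPM, with PWK/PhJ at 81.6, 88.6 and 74.6 CPM and C57BL/6J at 66.1 to 88.9 CPM. On the log2 scale the fitted PWK/PhJ difference from C57BL/6J was 3.91 ± 0.25 (SE) in DE and 0.01 ± 0.13 in EpiSC. No pair of the 5 strains was switched in this gene, and 1 of 10 pairs was separated in EpiSC, against 8 in DE. Over all genes tested the median was 4 separated pairs in EpiSC and 3 in DE.

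Med18 (chromosome 4, 132458731 to 132463921, minus strand) was low in DE of WSB/EiJ and did not set PWK/PhJ apart. It had 3.19 and 2.53 CPM in WSB/EiJ DE and 16.1 CPM in CAST/EiJ DE, against 67.6, 50.9, 63.7, 55.0 and 44.7 CPM in C57BL/6J DE. The other DE libraries had 43.7 to 60.8 CPM, among them 54.4, 47.9, 50.6 and 57.1 CPM in PWK/PhJ. In EpiSC the 17 libraries lay between 11.3 and 16.5 CPM, with WSB/EiJ at 14.8 and 16.0 CPM, above the 11.8 to 13.8 CPM of C57BL/6J. WSB/EiJ was the one strain in which the mean level was lower in DE than in EpiSC. The fitted log2 difference of WSB/EiJ from C57BL/6J was -4.32 ± 0.27 (SE) in DE and 0.28 ± 0.11 in EpiSC, and that of PWK/PhJ -0.21 ± 0.16 and -0.02 ± 0.10 in the same order.

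**Figure D2:**
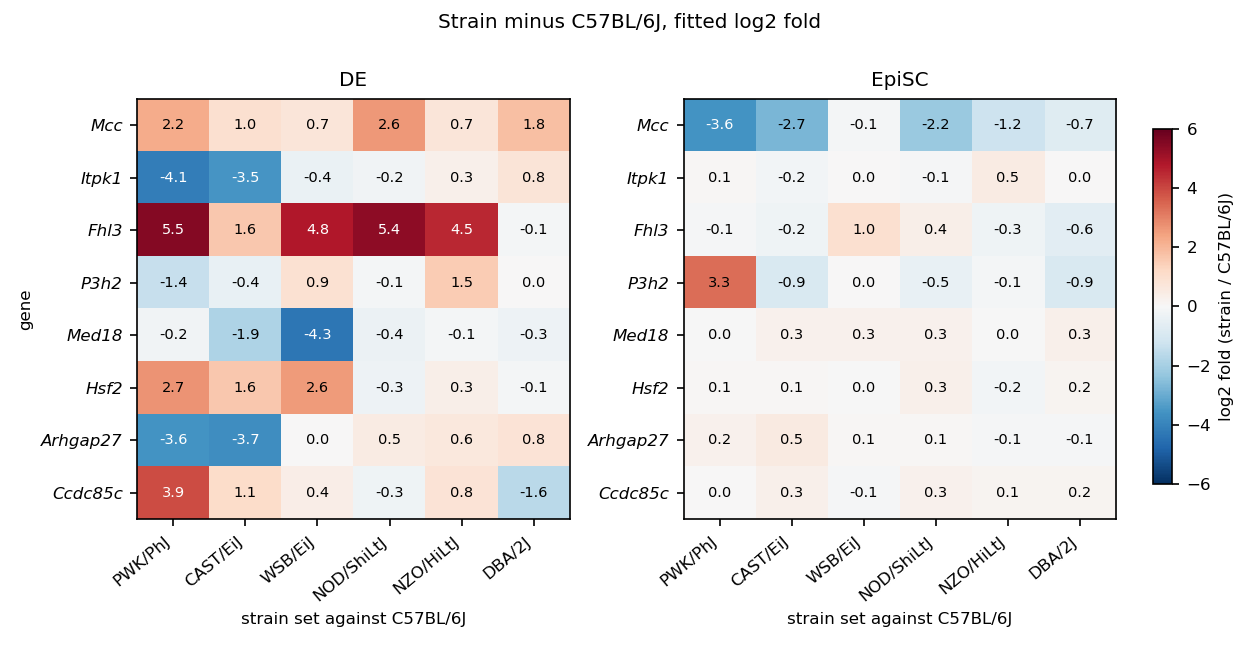
Fitted log2 difference of each of 6 strains from C57BL/6J (columns) for each gene (rows), in DE on the left and EpiSC on the right, with red for higher and blue for lower than C57BL/6J. Most cells are near 0 in EpiSC except for Mcc and for P3h2 in PWK/PhJ (3.33), while in DE different strains carry the difference in different genes.

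Averaged with equal weight over the 5 strains, 8 of the 8 genes differed between DE and EpiSC by edgeR's quasi-likelihood test (Benjamini-Hochberg), 6 lower and 2 higher in DE, where 74.1% of all genes were called, 38.7% lower and 35.4% higher. A share of that size means that a call in this comparison is common to most genes. Of the 8, Ccdc85c had the largest fall in DE, a log2 mean of -3.17 ± 0.12 (SE), followed by Mcc with -2.03 ± 0.18, Hsf2 with -1.32 ± 0.08, Arhgap27 with -1.23 ± 0.12 and Fhl3 with -1.22 ± 0.14. Itpk1 was lower, at -0.34 ± 0.11, with an adjusted p of 0.0089 in edgeR, and a fit with additive strain and cell type gave -0.35 with an edgeR adjusted p of 0.381. P3h2 and Med18 were higher in DE, by 1.60 ± 0.17 and 1.07 ± 0.08. These means join unlike strains. For Ccdc85c the log2 change was -0.15 ± 0.21 in PWK/PhJ and -4.07 ± 0.20 in C57BL/6J, for Med18 it was -2.43 ± 0.21 in WSB/EiJ and 2.17 ± 0.13 in C57BL/6J, and for P3h2 it was -2.71 ± 0.33 in PWK/PhJ and 1.96 ± 0.28 in C57BL/6J. For Itpk1 it was -3.52 ± 0.23 in PWK/PhJ, against 0.66 ± 0.18 in C57BL/6J, 0.51 ± 0.28 in NOD/ShiLtJ, 0.42 ± 0.28 in NZO/HiLtJ and 0.24 ± 0.28 in WSB/EiJ. Among the 5 strains the negative mean of Itpk1 thus came from PWK/PhJ alone.

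**Figure D3:**
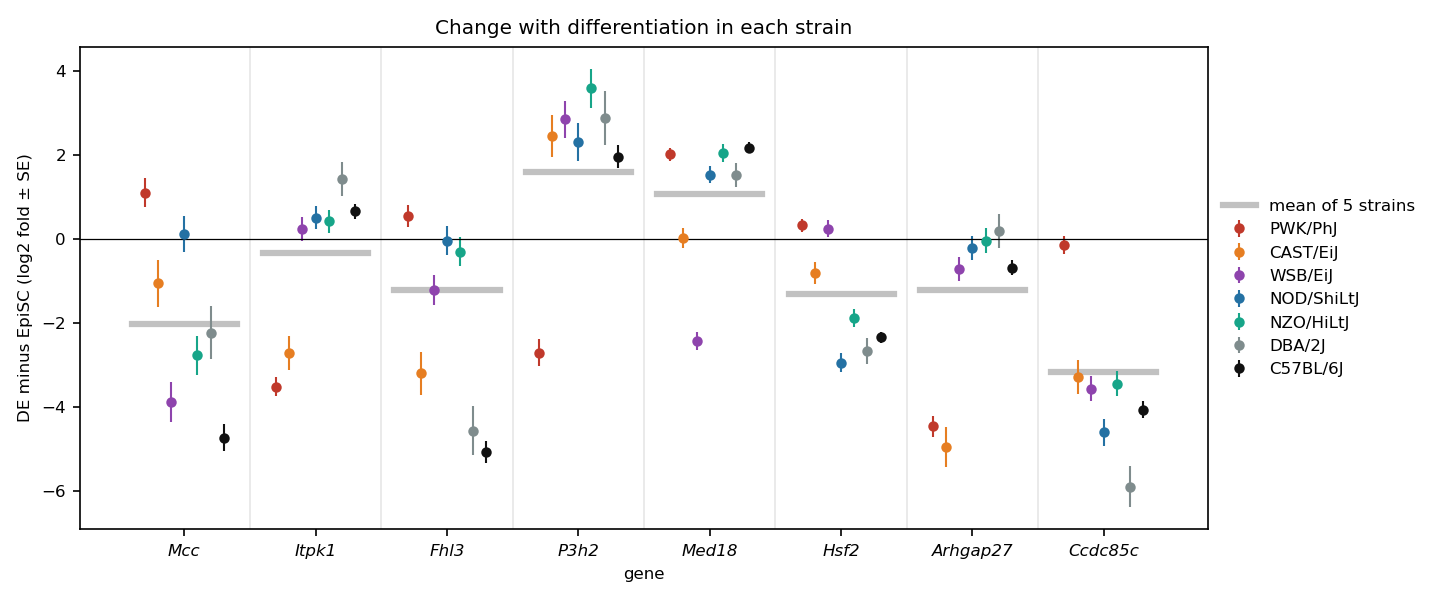
Fitted change with differentiation, DE minus EpiSC, on the log2 scale with its SE for each gene and strain, with the mean of the 5 strains that have at least 2 libraries in both cell types as a grey bar. PWK/PhJ lies far from C57BL/6J in every gene but Med18, where WSB/EiJ does (-2.43 against 2.17).

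Between CAST/EiJ and C57BL/6J the change with differentiation differed by more than 1 on the log2 scale in 6 of the 8 genes. The genes were chosen for strain orders that differ between the cell types, CAST/EiJ being among the strains ordered, the C57BL/6J libraries are shared with the other strain differences, and CAST/EiJ DE is 1 library taken to vary like the other groups, so these values describe the genes and support nothing about them. Arhgap27, Itpk1 and Med18 had negative log2 differences of -4.27 ± 0.49 (SE), -3.37 ± 0.44 and -2.15 ± 0.30. In DE the Med18 level of CAST/EiJ lay between those of WSB/EiJ and of the other strains. Mcc had a difference of 3.67 ± 0.59, Hsf2 of 1.53 ± 0.27 and Fhl3 of 1.87 ± 0.50, with 0.78 ± 0.38 for Ccdc85c and 0.49 ± 0.58 for P3h2. In the fit across all genes 6 of the 8 genes were past edgeR's threshold, as were 1.76% of all genes tested (367 genes), and nothing is read from that count. Fhl3 was not past it in 25 of the 33 fits without 1 library, and neither Fhl3 nor Hsf2 was with cell line as a block. Both CAST/EiJ EpiSC libraries carried more endoderm list signal than the other EpiSC libraries, with 1213 and 1444 CPM against at most 507 CPM, and its part in these differences was not tested.

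Within EpiSC alone, likewise a description, CAST/EiJ was past edgeR's threshold against C57BL/6J in 3 of the 8 genes, as it was in 31.6% of all genes tested. Mcc was lower, at -2.73 ± 0.35 (log2, SE), P3h2 was lower, at -0.93 ± 0.17, and Arhgap27 was higher, at 0.54 ± 0.14. Arhgap27 was not past the threshold once either CAST/EiJ library was left out. Itpk1 and Med18, which were far lower in CAST/EiJ DE, had EpiSC differences of -0.17 ± 0.18 and 0.28 ± 0.11 that did not pass the test.

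DBA/2J, with 1 library in each cell type and also among the strains whose order chose the genes, gave no called difference from C57BL/6J in its change with differentiation in any of the 8 genes by edgeR's quasi-likelihood test, where 0.043% of all genes (9 genes) were called. The log2 differences were -1.84 ± 0.46 (SE) for Ccdc85c, 2.50 ± 0.68 for Mcc, -0.64 ± 0.31 for Med18, 0.92 ± 0.67 for P3h2 and -0.32 ± 0.32 for Hsf2. With so few libraries the comparison leaves wide intervals. Fhl3, low in DE in both DBA/2J and C57BL/6J, had a difference of 0.51 ± 0.60, and Itpk1 and Arhgap27, high in DE in both, had 0.76 ± 0.43 and 0.86 ± 0.45.

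The likeness of other genes to each member was described by Pearson's r of log2 CPM over the 34 libraries after the mean of each cell type was subtracted, among 10933 genes, and libraries of a strain and line are not independent points. Itpk1 and Arhgap27, on different chromosomes, were each other's most alike gene with r = 0.947. Their low DE values in PWK/PhJ and CAST/EiJ were among those that chose the genes. In EpiSC their orders of strain means differed, with some neighbouring strains overlapping in each. The next most alike to Itpk1 were Exoc8, an exocyst subunit (0.936), and Fbxw5, an F-box protein (0.923), and to Arhgap27 they were Tmppe (0.908) and Pip5k1a, a phosphatidylinositol kinase (0.883). Exoc8 averaged 8.60 ± 1.66 CPM in PWK/PhJ DE and 8.16 CPM in CAST/EiJ DE, against 29.7 ± 6.69 CPM in C57BL/6J DE (SD, n = 4 for PWK/PhJ, 1 for CAST/EiJ and 5 for C57BL/6J). Hsf2 was most like the tetraspanin Cd151 (0.941), the lipase Abhd2 (0.930) and Mon2 (0.887). Ccdc85c was most like a gene known by a clone name (0.916), Selt (0.890) and Man1b1 (0.888), and Fhl3 like RP24-406J12.2 (0.912), Sv2a (0.786) and Prps1 (0.778). For Med18 the highest values were 0.869 (Pcid2), 0.841 (Idh1) and 0.821 (Usf1), for P3h2 0.777 (Nsd1), 0.766 (Yae1d1) and 0.691 (RP23-357J7.6), and for Mcc 0.760 (RP23-437A9.3), 0.756 (Stk39) and 0.742 (Dtx4). Among the members, Ccdc85c ran opposite to Itpk1 (r = -0.897) and Arhgap27 (r = -0.859) and with Hsf2 (r = 0.773), and Itpk1 and Ccdc85c, though on the same chromosome, lie 5.50 megabases apart. None of the genes with a known position that were most alike to a member lay near it, the closest on the same chromosome being Mon2, 65.5 megabases from Hsf2.

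The 5 tested genes on each side of each member were examined for a strain by cell type difference of their own. Of these 80 neighbours 10 passed edgeR's quasi-likelihood test (12.5%), against 10.7% of all genes, a share near the background. Chga, which encodes chromogranin A of secretory granules and lies 3.55 kilobases from Itpk1, had the smallest adjusted p among them (9.18e-05). It averaged 11.1 CPM in PWK/PhJ DE against 260 CPM in C57BL/6J DE, and 8.01 CPM in PWK/PhJ EpiSC against 9.32 CPM in C57BL/6J EpiSC, so that its difference of -4.34 ± 0.58 (log2, SE) was near the -4.17 ± 0.29 of Itpk1. The DE libraries had 5.50, 20.3, 8.74 and 9.74 CPM of Chga in PWK/PhJ, 33.1 and 17.3 CPM in NOD/ShiLtJ, 95.9 CPM in CAST/EiJ and 281.6, 383.5, 154.2, 236.1 and 246.0 CPM in C57BL/6J. Chga was thus low in NOD/ShiLtJ as well as PWK/PhJ, where Itpk1 was not low in NOD/ShiLtJ, and 1 of the CAST/EiJ EpiSC libraries stood at 79.0 CPM. Rin3, a Rab5 exchange factor 178 kilobases from Itpk1, had a difference of -2.84 ± 0.61. Pou3f1, a POU domain transcription factor 40.1 kilobases from Fhl3, had 2.61 ± 0.58, in the direction of Fhl3 (5.62 ± 0.39), with 9.49 to 46.3 CPM in the PWK/PhJ DE libraries and 4.22 to 9.61 CPM in those of C57BL/6J, which overlapped. Pou3f1 did not follow Fhl3 in WSB/EiJ DE, where Fhl3 was high and Pou3f1 had 3.33 and 3.82 CPM, below all C57BL/6J DE libraries. NOD/ShiLtJ had 45.4 and 211 CPM of Pou3f1 in DE, the higher value in line AC576, which also had the higher Fhl3. NZO/HiLtJ had 11.8 and 9.53 CPM of Pou3f1 in DE, CAST/EiJ 10.6 CPM and DBA/2J, low in Fhl3 too, 3.585 CPM. Dpysl3, 987 kilobases from Mcc, had -2.17 ± 0.46, and Man1a, 3410 kilobases from Hsf2, had 2.22 ± 0.63. Ptafr, 100 kilobases from Med18, had 2.97 ± 1.20, with means of 4.435 CPM in PWK/PhJ DE and 0.487 CPM in C57BL/6J DE. In EpiSC the Ptafr means were 0.286 CPM in PWK/PhJ and 0.2505 CPM in C57BL/6J. Of the remaining 4, Lpp, 967 kilobases from P3h2, had -0.98 ± 0.37 and Hexim1, 212 kilobases from Arhgap27, had -1.02 ± 0.26. Eml1, 95.5 kilobases from Ccdc85c, had -0.15 ± 0.34, and D130007C19Rik, 797 kilobases from Fhl3, had -2.46 ± 0.71. With cell line as a block, Hexim1, Ptafr and D130007C19Rik were not called, with edgeR adjusted p-values of 0.102, 0.075 and 0.204. D130007C19Rik was also not called without a filter on low counts (edgeR adjusted p = 0.398) or with the fibroblast covariate (0.0726). When 1 library was left out, D130007C19Rik was not called in 23 of 34 fits, Ptafr in 22 and Hexim1 in 7.

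**Figure D4:**
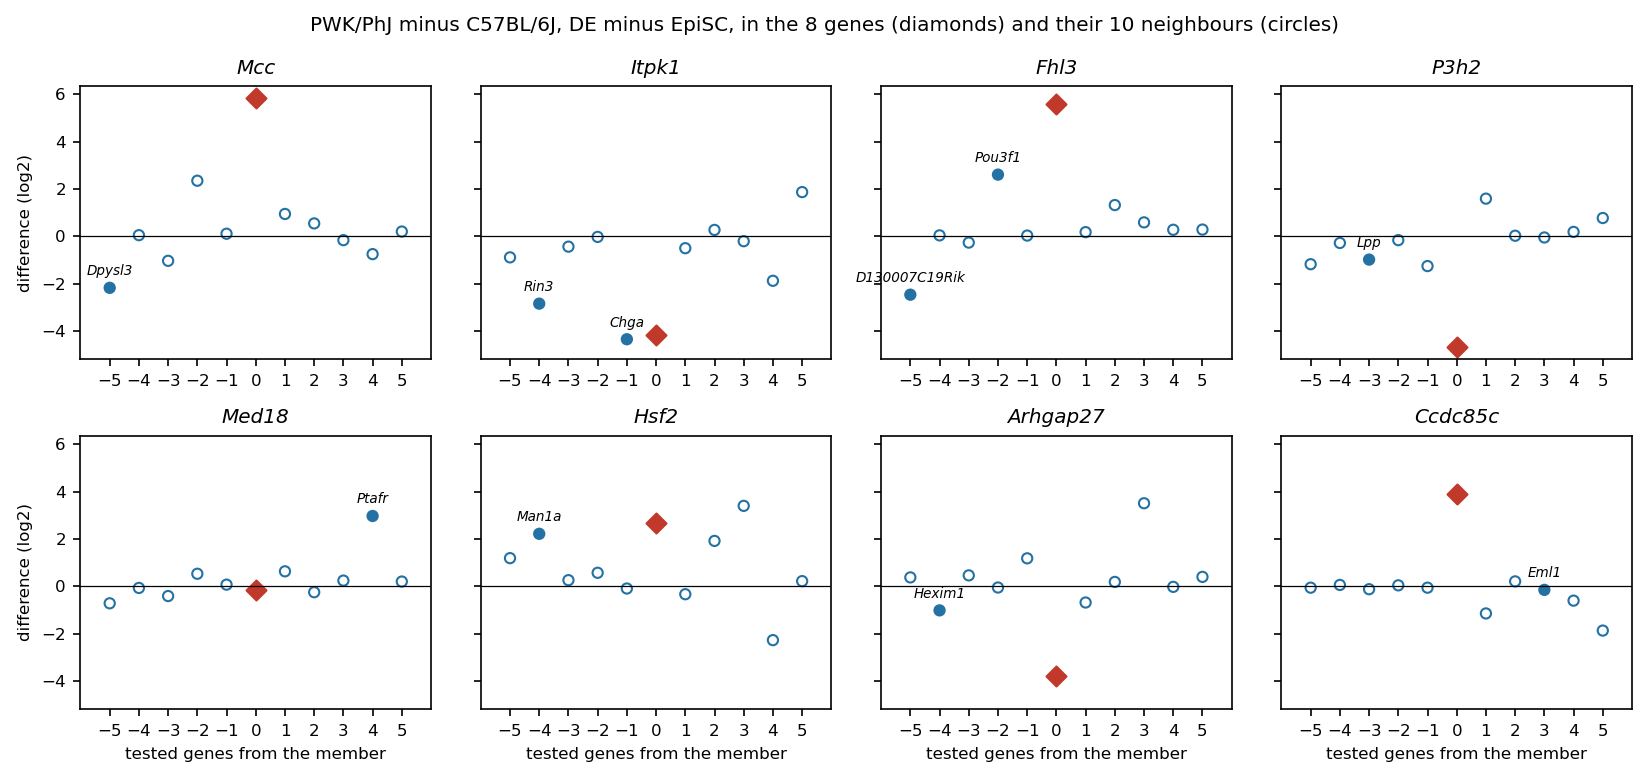
Difference of PWK/PhJ from C57BL/6J in the change with differentiation (log2, DE minus EpiSC) for each gene (diamond at 0) and the 5 tested genes on each side along its chromosome (circles, filled and named where the strain by cell type test over 5 strains was passed). Of the named neighbours Chga (-4.34) lies nearest in value to its member (Itpk1, -4.17), and most neighbours are open circles.

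Family members, partners and related genes of the 8 members were counted in lists, without the members themselves. Of the 100 listed genes tested, 10 passed edgeR's strain by cell type test (10.0%), the share of all genes being 10.7%. Among 29 Mediator subunits Med13 was called (adjusted p = 0.0364 in edgeR). Of the 29, 14 were called higher in DE and 8 lower, where 35.4% of all genes were called higher and 38.7% lower. Of 12 inositol phosphate kinases and related enzymes Ip6k2 and Itpkb were called. Ip6k2, which makes inositol pyrophosphates further along the same pathway, averaged 56.6 CPM in PWK/PhJ DE against 22.1 CPM in C57BL/6J DE. CAST/EiJ DE, like PWK/PhJ DE low in Itpk1, had 76.4 CPM. Ip6k2 was also above C57BL/6J in DE of NZO/HiLtJ (42.2 CPM), NOD/ShiLtJ (36.8 CPM) and DBA/2J (30.0 CPM), where Itpk1 was not low. Its strain order in DE thus did not mirror that of Itpk1. Of 9 FHL and LIM genes Csrp1 and Fhl1 were called, and Csrp1, a LIM protein of the cytoskeleton, averaged 315.6 CPM in NZO/HiLtJ, 157 CPM in PWK/PhJ, 61.9 CPM in NOD/ShiLtJ and 55.9 CPM in WSB/EiJ, against 124 CPM in C57BL/6J, all in DE. In EpiSC the mean of Csrp1 was 43.6 CPM in NZO/HiLtJ, the lowest of the strains, against 122 CPM in C57BL/6J. Of 14 heat shock factors and their targets the chaperone genes Dnajb1 and Hspa4l were called. In that list 8 genes were called lower in DE and 4 higher, beside the same shares of all genes. In DE Dnajb1 averaged 148 CPM in PWK/PhJ and 105 CPM in WSB/EiJ, where Hsf2 was high, 133 CPM in NOD/ShiLtJ, 141 CPM in DBA/2J and 231 CPM in NZO/HiLtJ, where it was low, and 202 CPM in C57BL/6J, so its strain order did not mirror that of Hsf2. Of 14 collagen hydroxylases and their partners Plod2, a lysyl hydroxylase, was called, of 10 MCC partners and Wnt scaffold genes Slc9a3r1, and of 4 CCDC85 family genes and partners Ccdc85a. With cell line as a block 5 of these 10 genes were not called, with edgeR adjusted p-values of 0.187 for Med13, 0.102 for Fhl1, 0.0855 for Hspa4l, 0.0792 for Ccdc85a and 0.0777 for Slc9a3r1. Med13 was also not called without a filter on low counts (edgeR adjusted p = 0.137) or with the fibroblast covariate (0.0684). Between DE and EpiSC, where most genes differ, the genes called higher and lower were 6 and 3 of the inositol phosphate enzymes, 1 and 3 of the FHL and LIM genes and 6 and 3 of the collagen hydroxylases and partners. They were 3 and 6 of the MCC partners and 1 and 2 of the CCDC85 genes and partners. Beside 35.4% of all genes called higher and 38.7% lower, nothing is read from these small counts.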

How the data were processed

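RNA-seq of 34 libraries was used as deposited: whole-number read counts per gene, not normalised by the authors, 1 table per cell type. Per the submitters' processing notes, STAR 2.4, HTSeq 0.6.1, DESeq2 and mm10, the C57BL/6J sequence, were used for all strains. The sources used here give neither annotation release nor strand setting.

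Testing used R 4.3.3 and edgeR 4.0.16, with a robust quasi-likelihood F test after TMM scaling and Benjamini-Hochberg adjustment (threshold 0.05), and kept genes that reached 10 counts in 3 or more libraries. All 34 libraries entered a fit with 1 mean per strain and cell type, and strains were compared within a cell type on its 17 libraries. Values per library are CPM of the total counts. DESeq2 1.42.0 was an alternative, beside other filters and scalings, a fibroblast covariate, a block and leaving out each library. The steps were tested on simulated data.

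The members and the lists were chosen with earlier results of these data known. The genes of 1 list count in the total over all lists, and that list is not reported here. Named beside the 8 members were the 3 most alike genes per member (log2 CPM, prior count of 2, mean of at least 1 in each cell type), called genes among the 5 tested neighbours on each side, called list genes and the genes next in rank. Predicted genes were passed over among the alike genes. Positions are from GENCODE M21 (GRCm38) and promoters from RefSeq.

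Replicates within a cell type are separate cell lines, and p-values measure the spread between lines. Libraries of 1 line pair DE with EpiSC by origin. Their deviations from the group means were correlated with r from 0.001 to 0.147 over 14 lines (median 0.036, over 0.1 in 6). Replicate libraries differed by a chi-square per degree of freedom of at least 31.5 in DE and 6.58 in EpiSC, so none was a duplicate. Without molecular identifiers, reads do not stand for separate molecules.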

Additional observations from a re-analysis of the deposited data

Results flagged for a closer look

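One library stood away from the others of its group in 1 of 24 groups examined, of which chance alone gives about 1 in 20. Med18 had 13.8 CPM in C57BL/6J EpiSC line 5-1, the other 4 lines lying between 11.8 and 12.3 CPM, a gap small beside the DE levels of the gene.

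In 6 of the 8 genes the change with differentiation was past edgeR's threshold between CAST/EiJ and C57BL/6J. The genes were chosen for strain orders that differ between the cell types, the C57BL/6J libraries are shared and CAST/EiJ DE is 1 library, so the count is tied to that choice and supports nothing. The log2 differences were 3.67 for Mcc, -3.37 for Itpk1, 1.87 for Fhl3, -2.15 for Med18, 1.53 for Hsf2 and -4.27 for Arhgap27, and those of Fhl3 and Hsf2 were not past it once cell line was a block.

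The strain by cell type test over 5 strains, fitted across all genes with edgeR, also called listed genes and neighbours of the members. Among the listed genes the adjusted p in edgeR was 0.000655 for Csrp1, 0.00125 for Dnajb1, 0.00226 for Ip6k2, 0.00275 for Plod2, 0.00487 for Itpkb, 0.0296 for Hspa4l, 0.0332 for Fhl1, 0.0364 for Med13, 0.0432 for Ccdc85a and 0.0496 for Slc9a3r1. Among the neighbours it was 9.18e-05 for Chga, 0.000276 for Pou3f1, 0.00384 for Rin3, 0.005 for Dpysl3, 0.0074 for Man1a, 0.00826 for Lpp, 0.0214 for Eml1, 0.0326 for Hexim1, 0.0428 for Ptafr and 0.0474 for D130007C19Rik. D130007C19Rik averaged under 1 CPM in every group of PWK/PhJ and C57BL/6J.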

How the results depend on the processing

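No called result changed direction under the alternatives run. Without a filter on low counts the genes called were 1183 for the CAST/EiJ difference (367 in the report), 368 for DBA/2J (9), 2150 for PWK/PhJ (1394) and 4155 for strain by cell type (2227), with 20 listed genes and 17 neighbours (10 and 10) and 2 of 8 members called for DBA/2J. With DESeq2 they were 819, 108 and 3849 for CAST/EiJ, DBA/2J and strain by cell type, with 16 listed genes, 17 neighbours and 1 member for DBA/2J. With the fibroblast covariate 5 genes were called for DBA/2J and 2187 for PWK/PhJ in DE (3303). The log2 difference of PWK/PhJ in DE was then -0.64 for P3h2, -3.68 for Itpk1, -0.55 for Med18 and 3.53 for Ccdc85c. With the cell line as a block, which pairs the libraries of a line, 107 genes were called for CAST/EiJ, 3 for DBA/2J, 797 for PWK/PhJ and 1113 for strain by cell type, with 6 listed genes and, for CAST/EiJ, 4 of the 6 members; it could not be fitted within a cell type. The cause of these shifts was not tested.

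Leaving out 1 library at a time gave 141 to 579 genes called for CAST/EiJ (579 without C57BL/6J DE line 2, 172 without CAST/EiJ EpiSC line WM080 and 141 without line WM078) with 5 or 6 members. For DBA/2J it gave 8 to 21 (18 without C57BL/6J DE line 2, 21 without line 1 and 14 without NZO/HiLtJ DE line AC653) with 0 members, and for CAST/EiJ in EpiSC 2826 to 5961 (2826 without WM080, 3296 without WM078) with 2 to 4 members. For PWK/PhJ it gave 3457 to 6368 in EpiSC (5330 in all; 3532 without AC695, 3457 without AC698), 2334 to 3795 in DE and 811 to 1964 for the difference (811 without AC695, 814 without AC705 and 842 without AC698 EpiSC). Strain by cell type gave 1452 to 3190 (1452 without NOD/ShiLtJ EpiSC line AC576), with 5 to 19 listed genes (5 without that library, 6 without PWK/PhJ EpiSC line AC698 and 19 without C57BL/6J DE line 2) and 7 to 16 neighbours (16 without the last). DE against EpiSC gave 14966 to 15757 genes, and 7 to 8 members had a switched pair.

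DE and EpiSC differ in library kit in every strain, 1 or 2 lines stand for most strains, and CAST/EiJ DE and DBA/2J rest on single libraries. The lowest values of the 8 genes rest on few counts. Reads of all strains were counted on one reference genome, and the part of strain variants in the counts was not tested.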
